A study of Mus musculus with 2 samples.

Results

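Krt7, Krt8, Krt18, Krt19, Krt20 and Krt23 are the 6 epithelial keratin genes described here, out of 31053 genes in the deposited matrix and 49 genes with a keratin symbol. They were taken as listed rows of the matrix by gene name; no threshold on their values was used, but the list was drawn up with earlier results of these data known. The study profiled mouse small intestinal organoids, self-organising epithelial cultures, as a control and with melatonin, a hormone whose dose the labels do not spell out. Each group was 1 droplet library built on culture day 3 from 3 organoid lines whose cells were pooled, so lines cannot be compared. The 3 files of the control and the 3 of the melatonin sample were identical, so both samples carry the same matrix. Its barcodes end in 1 (set 1) or 2 (set 2), and no label ties an ending to a treatment. The library names, SET2-CONT and SET2-M500, share the code SET2, which has no stated link to the set 2 used here, and what M500 stands for is not stated.

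Keratins build the intermediate filaments of epithelial cells, and each filament needs a type II keratin paired with a type I keratin. Krt7 and Krt8 are type II; Krt18, Krt19, Krt20 and Krt23 are type I. Krt8 with Krt18 is the basic pair of simple epithelia such as the gut lining, Krt19 is a further type I partner there, and Krt20 is known from differentiated cells of the villus. Krt7 is known from ducts and other simple epithelia, and Krt23 is a less studied type I member.

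Values are counts of unique molecular identifiers (UMIs), which number captured RNA molecules. A level is given as CPM, the UMIs of a gene per 1000000 UMIs of the cells summed. The library reads 3′ ends, so a molecule counts once whatever its length, and levels of different keratins are set side by side on that scale without a length correction. Cells were kept from 500 detected genes and 1000 UMIs upward, provided that mitochondrial genes took no more than 20%, which left 2300 cells in set 1 (median 29872 UMIs) and 1766 in set 2 (median 28759 UMIs). None of the 29 barcode sequences present with both endings was among the kept cells. With 1 matrix there are no replicates: no test was run, the direction set 2 over set 1 is arbitrary, and 95% intervals cover counting error only. Summed marker genes of immune, mesenchymal and endothelial cells stood between 0.137 and 4.97 CPM in either set.

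Cells were placed in classes by marker genes that include no keratin. The 5 classes with at least 50 cells in each set were cells in G2 and mitosis (1234 in set 1 and 612 in set 2), cells in S phase (145 and 271), stem-like cells (143 and 211), enterocyte-like cells (134 and 190) and enteroendocrine-like cells (269 and 271). Each class is a range of a marker score. Within 1.5 times its threshold lay 219 and 132 cells of the G2 and mitosis class, 33 and 69 of the S phase class, 25 and 37 of the stem-like, 27 and 20 of the enterocyte-like and 8 and 5 of the enteroendocrine-like cells. The cycling classes also carried stem genes: per 10000 UMIs, the median stem score was 7.03 and 7.56 in G2 and mitosis against 7.27 and 6.27 in the stem-like class. Smaller classes were goblet-like or Paneth-like cells (32 and 15), cells past a gate of fetal and regeneration genes such as Anxa1, Clu and Ly6a, called revival-like (12 and 23), and tuft-like cells (8 and 1). A further 43 and 43 cells passed several lineage gates, and 280 and 129 passed none, the latter with median depths of 1501.5 and 3713 UMIs.

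Promoter sequence is shown for Krt7 and Krt20, the members whose levels differed most between the larger classes. RefSeq's table on build GRCm38.p6 held a promoter for 5 of the 6 members; Krt19 was not matched. The 250 bases before the gene start are printed 5′ to 3′ on the gene's strand, for Krt7 at chr15:101412153-101412402 on the plus strand and for Krt20 at chr11:99438154-99438403 on the minus strand. Capitals mark matches, on either strand, of 3 searched motifs: GGAATG, the core of TEAD factors through which the YAP regulator acts; TGANTCA, the AP-1 core; and the GC box GGGCGG.
Krt7: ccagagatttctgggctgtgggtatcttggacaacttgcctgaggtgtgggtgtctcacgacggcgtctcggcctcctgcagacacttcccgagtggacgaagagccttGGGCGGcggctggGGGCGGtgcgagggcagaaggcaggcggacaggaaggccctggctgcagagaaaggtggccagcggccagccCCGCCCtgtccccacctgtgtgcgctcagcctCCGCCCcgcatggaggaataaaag
Krt20: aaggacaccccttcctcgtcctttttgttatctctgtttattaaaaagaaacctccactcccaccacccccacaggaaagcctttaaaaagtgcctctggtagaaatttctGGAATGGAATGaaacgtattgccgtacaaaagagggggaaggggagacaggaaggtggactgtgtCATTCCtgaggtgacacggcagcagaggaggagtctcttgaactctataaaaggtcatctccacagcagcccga
The capitals in Krt7 are 4 GC boxes whose first bases lie 141, 128, 56 and 24 bases before the start, the nearer 2 on the opposite strand. Those in Krt20 are 3 GGAATG cores at 139, 134 and 74 bases; the first 2 share a base, and the last is on the opposite strand. Windows of Krt8, Krt18 and Krt23 held none of the 3 motifs. Among 32851 promoters of the same length, GGAATG was found in 12.64%, TGANTCA in 6.749% and GGGCGG in 32.74%, so a match is common and is a description of letters only.

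The 6 keratins made up 0.224% of all UMIs of set 1 and 0.341% of set 2. Krt8 was the most abundant member, with 1047 CPM (interval 1039 to 1055) among the cells of set 1 and 1609 CPM (1598 to 1620) among those of set 2. Krt18 and Krt19 followed at 571 and 560 CPM in set 1 and at 896 and 799 CPM in set 2. Together these 3 genes carried most of the members' UMIs: Krt8 46.7% and 47.2%, Krt18 25.5% and 26.3%, Krt19 24.9% and 23.4%. The others were rare, with Krt7 at 49.5 and 63.7 CPM, Krt20 at 11.9 and 29.7 CPM and Krt23 at 4.36 and 11 CPM. The rare members were also concentrated. To hold 50% of a gene's UMIs took 564 and 377 cells for Krt8, 138 and 117 for Krt7, 26 and 48 for Krt20, and 12 and 6 for Krt23.

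The share of cells with at least 1 UMI followed the same order. Krt8 was seen in 96.3% and 98.6% of kept cells, Krt18 in 93.2% and 96.4%, Krt19 in 90.2% and 91.6%, Krt7 in 37.9% and 44.8%, Krt20 in 7.87% and 16.9% and Krt23 in 6.0% and 8.55%. At a common depth of 2000 UMIs per cell, which left out 265 and 77 shallower cells, the expected shares were 84.1% and 90.6% for Krt8, 64.1% and 72.4% for Krt18, 59.9% and 65.6% for Krt19, 10.6% and 11.9% for Krt7, 2.18% and 4.76% for Krt20, and 0.80% and 1.17% for Krt23. These shares hold for that depth alone: Krt7 in set 1 was at 5.63% at 1000 UMIs and 19.8% at 5000 UMIs, and Krt20 in set 2 at 2.83% and 8.37%. Free RNA gives every droplet some UMIs of abundant genes. As a gauge, the enteroendocrine granule gene Chgb, a marker of that class's gate, stood at 42143 and 36704 CPM in enteroendocrine-like cells. It stood between 39.5 and 49.9 CPM in the other 4 large classes.

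**Figure D1:**
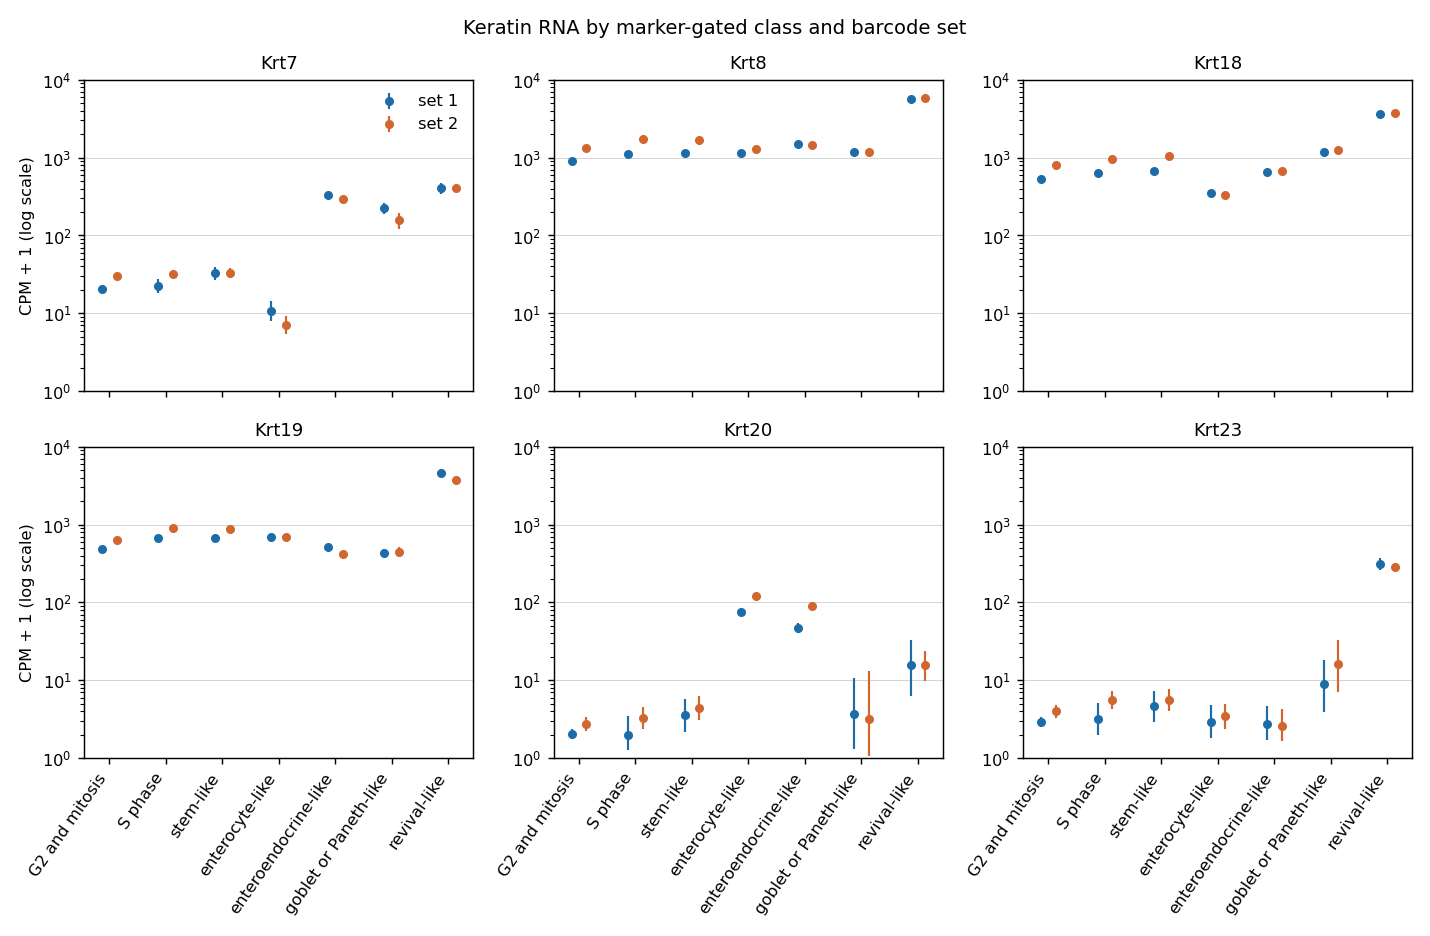
Level of each keratin as CPM + 1 on a log scale (vertical axis) in 7 marker-gated classes (horizontal axis), for set 1 (blue) and set 2 (orange), with 95% counting intervals. Krt8, Krt18 and Krt19 are high in every class and highest in the revival-like cells. Krt7 is high in revival-like (404 and 410 CPM), enteroendocrine-like (326 and 291 CPM) and goblet-like or Paneth-like cells (221 and 156 CPM). Krt20 is high in enterocyte-like cells (74.0 and 121 CPM) and Krt23 in revival-like cells (311 and 286 CPM).

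Krt8, the common type II partner, was abundant in all 5 large classes. In set 1 it ran from 912 CPM in G2 and mitosis to 1509 CPM in enteroendocrine-like cells, with stem-like (1150 CPM), enterocyte-like (1146 CPM) and S phase cells (1117 CPM) between them and not separated beyond counting error. In set 2 the order differed: S phase (1718 CPM) and stem-like cells (1670 CPM) were highest, and enteroendocrine-like cells (1459 CPM), G2 and mitosis (1347 CPM) and enterocyte-like cells (1275 CPM) followed. Per cell, the G2 and mitosis class of set 1 ran from 0 through a median of 851 to 3857 CPM. Krt8 did not pass 2-fold against the other cells of its set in any of these classes.

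Krt18, the usual type I partner of Krt8, was lowest in enterocyte-like cells, at 352 CPM (334 to 370) and 332 CPM (318 to 346). The other large classes held 523 to 665 CPM in set 1 and 665 to 1062 CPM in set 2, so the enterocyte-like cells lay below all of them. Against all other cells of the set, the enterocyte-like level was 0.599 times as high in set 1 and 0.339 times in set 2, past 2-fold in the latter. Smaller classes were higher: 1192 and 1264 CPM in 32 and 15 goblet-like or Paneth-like cells, and 3586 and 3717 CPM in the revival-like cells.

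The balance within the pair therefore differed between classes. Over all kept cells there were 0.546 and 0.557 Krt18 UMIs per Krt8 UMI. The ratio was 1.01 (0.915 to 1.10) and 1.06 (0.942 to 1.19) in goblet-like or Paneth-like cells, between 0.560 and 0.636 in the cycling and stem-like classes, 0.431 and 0.456 in enteroendocrine-like cells, and 0.307 (0.289 to 0.326) and 0.260 (0.248 to 0.273) in enterocyte-like cells. Within a class the pair varied together from cell to cell: Spearman's rho of their CPM, in cells with at least 5000 UMIs, lay between 0.337 and 0.657 over the 5 classes and 2 sets. Those cells share a library and their depth enters both values, so this is a description.

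The enterocyte marker score gives a finer view. It sums 13 genes of nutrient uptake and lipid handling, such as Apoa1, Fabp1 and Sis, per 10000 UMIs, and cells of the other lineages were left out. Krt18 per Krt8 was 0.776 in set 1 and 0.688 in set 2 at scores under 10, 0.527 and 0.479 at 25 to 50, 0.420 and 0.336 at 100 to 200, and 0.216 and 0.230 at 400 or more. Each step to a higher score gave a lower ratio in both sets. Krt18 itself was at 919 and 1125 CPM in the lowest score range and at 211 and 264 CPM in the highest, where Krt8 was at 975 and 1150 CPM.

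Krt19, a type I keratin that can also pair with Krt8, differed from Krt18 along the same score. It was at 557 and 741 CPM at scores under 10, at 504 and 722 CPM at 10 to 25, at 823 and 1009 CPM at 100 to 200, at 829 and 861 CPM at 200 to 400, and at 537 and 533 CPM at 400 or more. The ranges from 50 to 400 were above both ends in both sets. The range of 10 to 25 was below the lowest-score range in set 1, while in set 2 these ranges were not separated beyond counting error. Among the 5 large classes, Krt19 was highest in enterocyte-like (693 CPM), S phase (672 CPM) and stem-like cells (667 CPM) of set 1, which overlapped within counting error, and in S phase (894 CPM) and stem-like cells (866 CPM) of set 2. Enteroendocrine-like cells had 507 and 421 CPM, and 8 tuft-like cells of set 1 had 177 CPM (116 to 260).

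**Figure D2:**
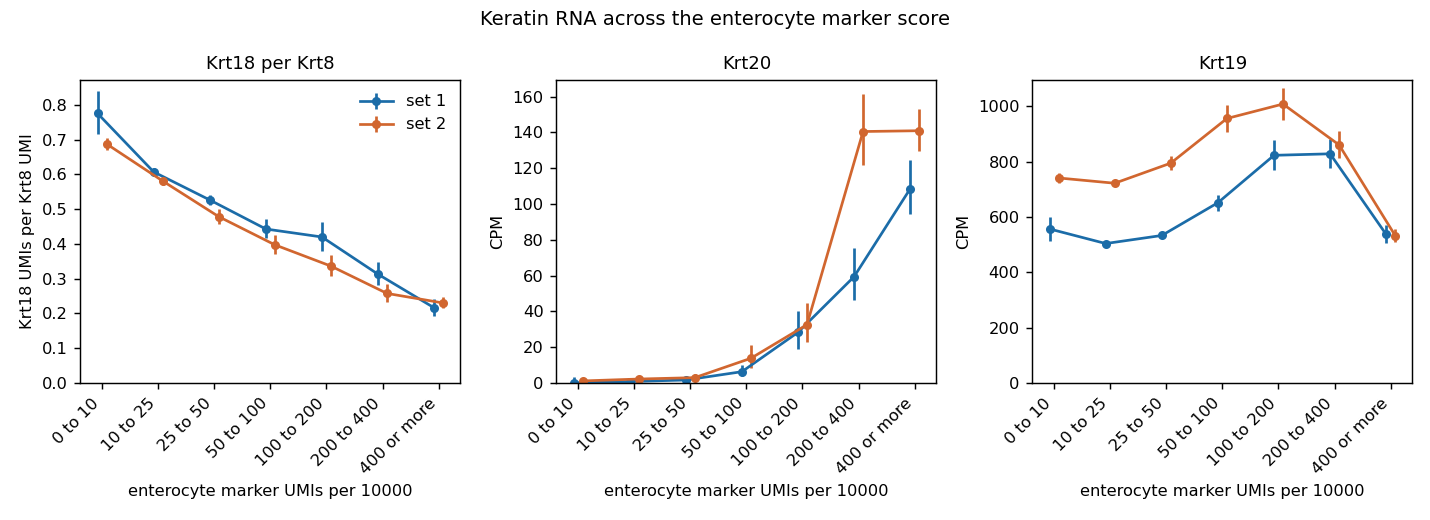
Krt18 UMIs per Krt8 UMI (left), Krt20 (middle) and Krt19 (right), the last pair in CPM, over 7 ranges of the enterocyte marker score (horizontal axis, marker UMIs per 10000), for set 1 (blue) and set 2 (orange) with 95% counting intervals. From the lowest to the highest range Krt18 per Krt8 goes from 0.776 to 0.216 (set 1) and from 0.688 to 0.230 (set 2), while Krt20 goes from 0 to 109 CPM and from 1.07 to 141 CPM.

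Among the large classes, Krt20, the type I keratin of differentiated villus cells, was highest in enterocyte-like cells in both sets. Set 1 had 74.0 CPM there (65.9 to 82.8) and set 2 had 121 CPM (113 to 130), against 7.46 and 16.3 CPM in the other cells, 9.92 and 7.46 times as much. With a mitochondrial limit of 10%, which left 31 and 29 of these cells, the log2 ratio of set 2 was 1.61 in place of 2.82, and that of Krt7 in set 1 was -1.09 in place of -2.31; with gate thresholds at 50%, that of Krt20 in set 1 was 2.44 in place of 3.15. The class had 1 member past 2-fold upward in each set (all genes: 6.55% and 6.75%), and 1 and 3 members past it downward (12% and 17.4%), namely Krt7 in both, and Krt18 and Krt23 in set 2, the last not without the revival-like cells. Krt20 had a UMI in 56.7% and 79.5% of enterocyte-like cells, or an expected 13.7% and 19.7% at 2000 UMIs. Per cell it ran from 0 through medians of 29.0 and 84.8 to 1371 and 1452 CPM.

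Along the enterocyte score, Krt20 was near 0 at low scores and high at the top. In set 1 it was listed with 0 UMIs in 70 cells at scores under 10, which allows up to 2.55 CPM if 3 UMIs are taken as the limit of a count of 0, and stood at 1.59 CPM at 25 to 50, 28.3 CPM at 100 to 200, 59.4 CPM at 200 to 400 and 109 CPM at 400 or more. In set 2 the same ranges held 1.07, 2.92, 32.5, 141 and 141 CPM. Cells in G2 and mitosis had 1.03 and 1.76 CPM, and S phase cells 0.976 and 2.29 CPM. Per 1000 UMIs of the enterocyte gene Fabp1, G2 and mitosis cells held 3.83 (2.78 to 5.14) and 6.97 (4.93 to 9.58) Krt20 UMIs, and enterocyte-like cells 4.02 and 6.64, so these low levels are not told apart from background and are not read as expression. Stem-like cells had 10.6 (4.81 to 20.1) and 10.9 (6.67 to 16.9) on that scale, from 9 and 20 Krt20 UMIs. The interval lay above that of enterocyte-like cells in set 1 (3.58 to 4.50) and overlapped it in set 2 (6.19 to 7.12). Fabp1 is a marker of the enterocyte gate, and enteroendocrine-like cells held 24.9% and 24.9% of all Krt20 UMIs. The enterocyte-like ratio is therefore not known to be that of free RNA, and expression in stem-like cells was not tested.

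Krt20 was also found in part of the enteroendocrine-like cells, the hormone-secreting lineage. The class had 45.7 and 87.7 CPM against 9.54 and 24.4 CPM in other cells, which include those past several gates. The log2 ratios were 2.15 and 1.81, and 2.73 and 2.32 with such cells placed in the gate of their largest score; they were 3.12 and 2.87 with a mitochondrial limit of 10%, and in set 1 1.42 with the mean of each cell's CPM. Most of its cells had none: Krt20 had a UMI in 24 of 269 and 54 of 271 cells, and the highest cells reached 1301 and 2416 CPM. Here Krt20 UMIs numbered 545 (452 to 655) and 1370 (1170 to 1605) per 1000 Fabp1 UMIs, against 4.02 and 6.64 in enterocyte-like cells. Fabp1 is a marker of the enterocyte gate, so the gates set part of this difference. The source of the Krt20 RNA in enteroendocrine-like cells was not tested. In the cells that passed several gates, those past both the enteroendocrine and goblet gates alone had 205 CPM (22 cells) and 325 CPM (15 cells), and all 43 and 43 cells past several gates together held 23.2% and 15.7% of all Krt20 UMIs.

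Krt7, the type II keratin of ducts, was higher in enteroendocrine-like cells than in the other 4 large classes. They held 326 CPM (309 to 345) and 291 CPM (275 to 307), against 30.4 and 42.8 CPM in the other cells, 10.7 and 6.79 times as much. With Krt20, this made 2 members past 2-fold upward in each set, and Krt23 was past it downward, but not without the revival-like cells, where its log2 ratios were -0.28 and -0.97 in place of -1.01 and -2.29. Among all genes, 28.9% and 25.3% were past 2-fold upward in this class and 9.3% and 10.7% downward, so such a difference was common there. A Krt7 UMI was present in 90.7% and 87.8% of these cells, or an expected 44.3% and 41.4% at 2000 UMIs, against 14.2% and 6.84% of enterocyte-like cells, or an expected 1.73% and 0.869%. Median depths were 14207 and 14452 UMIs in enteroendocrine-like and 32502 and 34083 UMIs in enterocyte-like cells, so the deeper class had the lower share.

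In the other large classes Krt7 was low but present. Stem-like cells had 31.6 and 32.0 CPM, S phase cells 21.5 and 30.9 CPM, G2 and mitosis cells 19.8 and 29.3 CPM, and enterocyte-like cells 9.77 and 6.13 CPM, the lowest. There were 424 and 630 Krt7 UMIs per 1000 Chgb UMIs in G2 and mitosis cells, against 7.75 and 7.92 in enteroendocrine-like cells. Chgb is a marker of the enteroendocrine gate, so the gates set part of this difference. The source of the Krt7 RNA in cycling cells was not tested. Smaller classes were not low: revival-like cells had 404 and 410 CPM, goblet-like or Paneth-like cells 221 and 156 CPM, and 8 tuft-like cells of set 1 had 211 CPM (144 to 300). The enteroendocrine-like cells still held the largest part of Krt7 UMIs, 42.5% and 38.5%.

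Within the enteroendocrine-like cells, Krt7, Krt19 and Krt20 differed between ranges set by 3 kinds of gene. Cells were split by Neurog3, the transcription factor of endocrine progenitors (104 and 66 cells), by Tph1, the serotonin-synthesis enzyme of enterochromaffin cells (94 and 103), and by the summed peptide hormones Cck, Gcg and Ghrl (29 and 87); 42 and 15 cells remained. These ranges were assigned in the order given, so the hormone range holds no cell past the Neurog3 or Tph1 limit, and were set after the data had been seen. Krt7 was at 474 and 471 CPM in the Neurog3 range, 306 and 366 CPM in the Tph1 range and 131 and 146 CPM in the hormone range, the same order in both sets.

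In the hormone range Krt20 was at its highest and Krt19 at its lowest, while both were low in the Neurog3 range. Krt20 was at 361 CPM (309 to 420) and 233 CPM (210 to 258) in the hormone range, where 65.5% and 56.3% of cells had a UMI, and at 0.703 and 4.82 CPM in the Neurog3 range and 5.07 and 0.616 CPM in the Tph1 range, each from 7 UMIs or fewer. The hormone range made up 29 of 269 cells in set 1 and 87 of 271 in set 2. Krt19 was at 932 and 879 CPM in the Tph1 range, at 232 and 204 CPM in the Neurog3 range, and at 106 and 55 CPM in the hormone range. Krt20 thus made up 16.7% and 11.6% of keratin UMIs in the hormone range and Krt19 4.90% and 2.74%, while in the Tph1 range Krt19 made up 26.3% and 23.6%. Of cells with Krt20, 20 of 24 and 47 of 54 also had a Krt7 UMI, a share near the 90.7% and 87.8% of all these cells that had one.

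**Figure D3:**
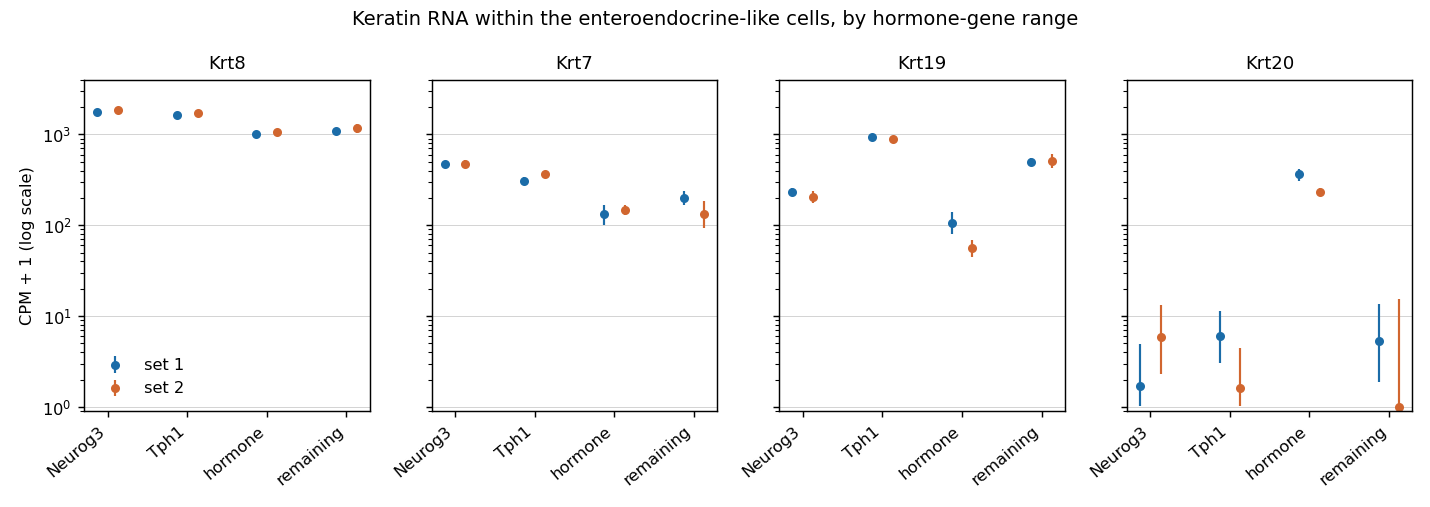
Krt8, Krt7, Krt19 and Krt20 as CPM + 1 on a log scale (vertical axis) in 4 ranges of the enteroendocrine-like cells (horizontal axis: Neurog3, Tph1, hormone and remaining), for set 1 (blue) and set 2 (orange) with 95% counting intervals. Krt20 stands at 361 and 233 CPM in the hormone range and is measured at 0 to 5.07 CPM in the other 3. The 0 of the remaining range in set 2 allows up to 11.7 CPM if 3 UMIs are taken as the limit of a count of 0. Krt19 is highest in the Tph1 range at 932 and 879 CPM.

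Type I and type II molecules were not balanced alike in these cells. Type I UMIs per type II UMI were 1.05 and 1.04 over all kept cells and 1.13 and 1.14 in stem-like cells, but 0.657 and 0.672 in enteroendocrine-like cells. The Neurog3 range was lowest, at 0.418 (0.392 to 0.446) and 0.404 (0.371 to 0.440), with Krt8 at 1766 and 1836 CPM, Krt18 at 703 and 724 CPM and Krt19 low. This is a ratio of RNA molecules captured and not of protein.

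Krt23 was rare in the large classes. The 5 large classes held 1.76 to 3.66 CPM in set 1 and 1.62 to 4.60 CPM in set 2, from 7 to 81 UMIs each, and their intervals overlapped from neighbour to neighbour. Goblet-like or Paneth-like cells had 8.0 and 15.3 CPM, 8 tuft-like cells of set 1 had 34.1 CPM (11.1 to 79.6), and the 1 tuft-like cell of set 2 had 2 UMIs. The 12 and 23 revival-like cells had 311 CPM (260 to 370) and 286 CPM (257 to 316). With 0.522% and 1.30% of the kept cells they held 47.6% and 65.4% of all Krt23 UMIs. Per cell, Krt23 ran from 0 through medians of 367 and 157 to 720 and 785 CPM, and 10 of 12 and 19 of 23 cells had a UMI.

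The revival-like cells had more of the other keratins as well. Krt8 stood there at 5704 and 5760 CPM, Krt18 at 3586 and 3717 CPM, Krt19 at 4554 and 3762 CPM and Krt7 at 404 and 410 CPM, while Krt20 was at 14.6 and 14.7 CPM from 6 and 19 UMIs. Summed over the 6 genes, single cells of set 1 had 5948 to 30742 CPM with a median of 11180 CPM, and those of set 2 had 3134 to 35649 CPM with a median of 10848 CPM. The medians of the other cells were 2009 and 2808 CPM. Of the revival-like cells, 12 of 12 and 18 of 23 lay above the 95th percentile of the other cells, 4362 and 5637 CPM. Their median depths were 33719 and 53143 UMIs, against 29872 and 28759 over all kept cells; the part of depth in these levels was not tested.

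**Figure D4:**
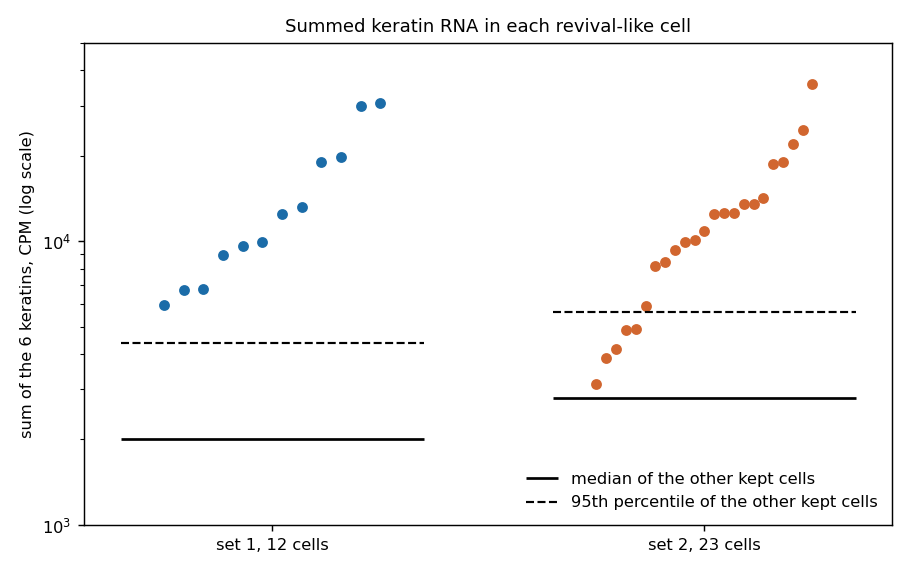
Sum of the 6 keratins in CPM on a log scale (vertical axis) for each revival-like cell (point), 12 in set 1 and 23 in set 2, sorted by value within a set; solid lines mark the median and dashed lines the 95th percentile of the other kept cells. The lowest cells stand at 5948 and 3134 CPM, above the medians of 2009 and 2808 CPM.

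In the cycling and stem-like classes no member passed 2-fold upward, which was passed by 1.27% and 1.83% of all genes in G2 and mitosis, 0.731% and 0.835% in S phase and 0.166% and 0.0637% in stem-like cells. Krt7, Krt20 and Krt23 were past it downward in G2 and mitosis in both sets (all genes downward: 11.9% and 8.95%). In S phase 2 members of set 1 and 3 of set 2 were past it downward (6.01% and 6.73%), and in stem-like cells 1 and 3 (5.47% and 6.5%). Some of these calls ended in other settings: Krt7 in S phase went from -1.23 and -1.15 to -0.77 and -0.78 on the log2 scale with no mitochondrial limit, and Krt20 in stem-like cells of set 1 from -1.93 to -0.87 with the mean of each cell's CPM and to -0.84 with a pseudocount of 10 CPM. Without the revival-like cells, an alternative chosen after the data had been seen, no Krt23 value was past 2-fold in any of the 5 classes, and Krt7 in S phase and stem-like cells of set 2 was at -0.92 and -0.83 in place of -1.15 and -1.06; in G2 and mitosis the log2 ratios of Krt23 were then -0.54 and -0.48 in place of -1.90 and -2.16. Over the 5 classes, 6 members and 2 sets, 27 of 60 values were past 2-fold, 18 without the revival-like cells, and 17 with a pseudocount of 10 CPM in place of 1. Krt8 and Krt19 were among none of them.

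Between the sets, every member was higher in set 2 when all kept cells were summed. Krt8 was 1.54 times (1.52 to 1.55), Krt18 1.57 times, Krt19 1.43 times, Krt7 1.29 times, Krt20 2.50 times (2.29 to 2.74) and Krt23 2.52 times (2.18 to 2.93) as high. Past 1.5-fold were 4 of 6, namely Krt8, Krt18, Krt20 and Krt23, against 3.86% of 15474 genes in either direction and 2.46% higher in set 2; among the 7585 genes that reached 10 CPM in either set, 3.78% were past it in either direction. The median log2 ratio on CPM + 1 was 0.63 over the members and 0.03 over all genes. Krt8 and Krt18 lay just past the threshold and Krt19 just short of it. Without the 12 and 23 revival-like cells, or with the classes given the same weight in both sets, both chosen after the data had been seen, 1 member, Krt20, remained past 1.5-fold, with log2 ratios of 1.27 and 0.62; Krt23 was then at 0.57 and 0.17, and Krt8 at 0.56 and 0.45. Leaving out the 5% of cells with the most UMIs, or averaging the CPM of single cells, also left 1.

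Class by class the ratio between sets was not the same. In G2 and mitosis, S phase and stem-like cells, Krt8 was 1.48, 1.54 and 1.45 times, Krt18 1.54, 1.54 and 1.60 times and Krt19 1.28, 1.33 and 1.30 times as high in set 2, with intervals that did not reach 1. In enteroendocrine-like cells the same genes stood at 0.967, 1.02 and 0.831 times, and in enterocyte-like cells at 1.11, 0.944 and 0.996 times. Past 1.5-fold were 1 member in G2 and mitosis (all genes: 3.62%), 4 in S phase (10.6%, of which Krt20 with 4 and 19 UMIs and Krt23 with 9 and 38 UMIs had intervals that reached 1), 1 in stem-like (11.5%), 1 in enteroendocrine-like (12.4%) and 2 in enterocyte-like cells (12.5%). The difference between classes was not tested, since each set is a single pool. Median mitochondrial shares of all kept cells were 9.29% and 9.08% in the 2 sets, and summed revival genes stood at 97.9 and 221 CPM; their part in the ratios was not tested.

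Krt20 was higher in set 2 in both classes that held it, 1.64 times (1.44 to 1.88) in enterocyte-like and 1.92 times (1.60 to 2.30) in enteroendocrine-like cells. Enterocyte-like cells were 5.83% of set 1 and 10.8% of set 2. In the hormone range, which held nearly all Krt20 of the enteroendocrine-like cells, the level itself was lower in set 2, 233 against 361 CPM, while the range held 87 against 29 cells. Krt7 had 40 UMIs in the enterocyte-like cells of each set, 9.77 and 6.13 CPM, and 3 cells held 45% and 67.5% of them.

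**Figure D5:**
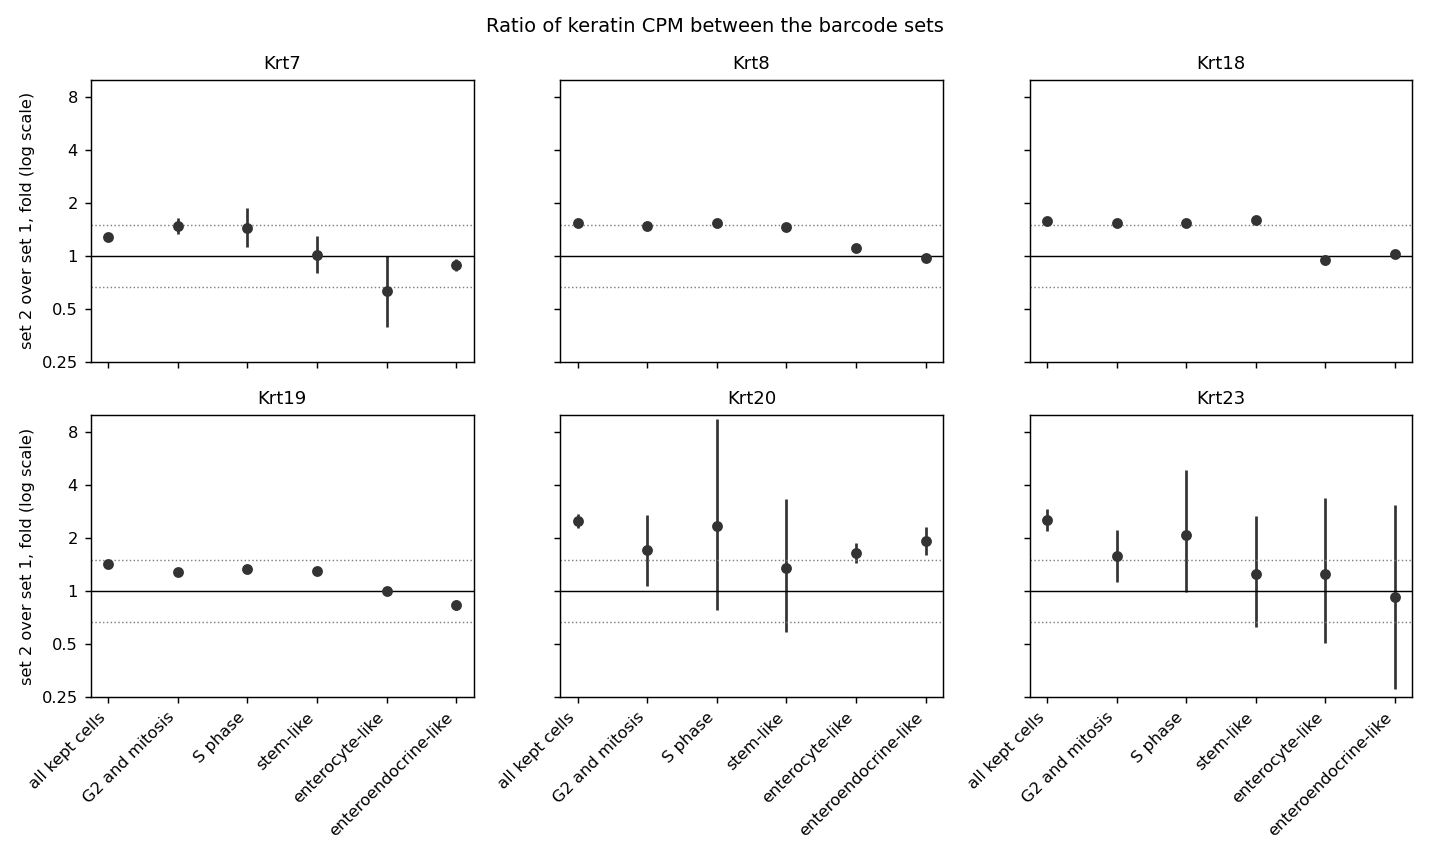
CPM of set 2 over set 1 for each keratin on a log scale (vertical axis) in all kept cells and 5 classes (horizontal axis), with 95% counting intervals; the solid line marks equal levels and the dotted lines 1.5-fold, which the text judges on CPM + 1. Krt8, Krt18 and Krt19 lie at 1.28 to 1.60 in the cycling and stem-like classes and at 0.831 to 1.11 in enterocyte-like and enteroendocrine-like cells.

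The other 43 keratin genes added little. The 6 members held 99.3% of all keratin UMIs. Of the others, 4 had at least 100 UMIs over the kept cells: Krt10 (1234 UMIs), Krt87 (265), Krt78 (224) and Krt15 (182). Krt87 was unevenly spread, with 224 of its 265 UMIs in enteroendocrine-like cells. A further 17 had 1 to 99 UMIs and 22 had none.

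Genes of the wider filament system were taken from lists chosen with earlier results known. Of 14 measured other intermediate filament genes, such as Vim and the lamins, 0 were past 1.5-fold between the sets, nor were any of 16 desmosome and linker genes such as Dsp and Plec, which anchor keratins at cell contacts. None of 10 genes for keratin binding and phosphorylation and of 11 epithelial transcription factors was past it either. With 3.86% of all genes past it, a count of 0 in lists of this size is near the background. The median log2 ratios of these lists ran from -0.11 to 0.15, against 0.03 over all genes. Of 6 measured squamous genes, which build the envelope of stratified epithelia, 4 were past it, all higher in set 2: Crct1 (2.63 and 59.7 CPM), Ly6d (5.45 and 13.7 CPM), Sprr1a (4.80 and 11.8 CPM) and Cnfn (0 and 244 UMIs), the last outside the naming rule for its low level and named after its value was seen. These shares stand against 2.46% of all genes higher in set 2. In set 2, 3 cells held 95.7% of Crct1, 83.0% of Ly6d and 61.8% of Sprr1a UMIs, and the revival-like cells held 96.4%, 91.3% and 58.8%. All 244 Cnfn UMIs lay in 3 cells of set 2, and 99.6% in revival-like cells. Sprr1a was spread over more cells, 57 and 84, and in set 1 the revival-like cells held 15.9% of it.

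Genes with the most similar pattern were sought among 7714 genes over 10 points, the 5 classes in each set, by Pearson's correlation of log2(CPM + 1). Nearest to Krt7 were Wdr6, Cd24a, Maml3, Camsap1 and St6galnac2 (0.993 to 0.991), and nearest to Krt20 were Cdkn2b, Cdhr2, Cd82, Rab30 and Cdhr5 (0.995 to 0.988), of which Cdhr2 and Cdhr5 are cadherins of the brush border. Krt8 had Sppl2b, Tnfrsf12a, Chid1, Nab1 and Bscl2 (0.906 to 0.839), Krt18 had Proser2, 1700017B05Rik, Wdr70, Alg1 and Alkbh1 (0.947 to 0.934), and Krt19 had Cyr61, Prss8, Spry1, Comtd1 and Efl1 (0.947 to 0.907). Krt8 and Krt18 themselves correlated at 0.609. Krt23 had fewer than 1000 UMIs and was left out. The points share 1 deposited matrix and 5 of them come from each pool, so these values rank genes and show nothing further.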

How the data were processed

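The deposited values are UMI counts per gene and barcode, whole numbers with no normalization by the authors. Per the submitters' processing notes, Cell Ranger 3.1.0, STAR 2.7.3a and bcl2fastq 2.20.0 were used; the genome build is not given in the sources used here, so coordinates are printed for RefSeq promoters only. Both samples' files were compared byte by byte. Gene symbols came from the deposited gene list, and 30934 of 31053 gene IDs were found in the reference table of gene names. The members, gene lists and thresholds were chosen with earlier results of these data known.

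Cells were classed by summed marker UMIs per 10000, with at least 3 markers detected: enteroendocrine 20, enterocyte 100, goblet 50, Paneth 50, revival 3, tuft 5 and microfold 5; then, in cells of no lineage, G2 and mitosis 10, S phase 4 and stem 3. No doublet caller was run; cells past several lineage gates were put in no class but stayed among the other cells of each class ratio. Enteroendocrine ranges used at least 2 Neurog3, 5 Tph1 or 20 hormone UMIs per 10000, in that order. A cell past an earlier limit was not placed in a later range, whatever its later counts.

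UMIs were summed per class and set with exact Poisson intervals; shares at 2000 UMIs came from the hypergeometric distribution with Clopper-Pearson intervals. Called genes had at least 10 UMIs and passed 1.5-fold between sets, or 2-fold between a class and other cells, on CPM plus a pseudocount of 1. PCR copies and free RNA are not covered by these intervals. Named were all members, other keratins with at least 100 UMIs, list genes at 10 CPM or more past the fold, and the 5 genes most correlated with each member. On simulated counts for set 2 over set 1 over 15474 genes, 200 of 200 changed genes passed the fold in the right direction and 96.5% of intervals held the true ratio. These counts were drawn with counting error only, and the changed genes stood at 10 CPM or more and differed by at least 2-fold. The simulation therefore checks the computation and cannot speak for ratios near 1.5-fold or for variation between cells. Python 3.11.15, numpy 2.4.6, scipy 1.17.1 and pandas 2.3.3 were used.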

Additional observations from a re-analysis of the deposited data

Results flagged for a closer look

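The ratio of set 2 over set 1 lay on opposite sides of 1 in different classes for Krt7 and Krt19, with counting intervals that excluded 1 in each. Krt7 was at 1.48 in G2 and mitosis and at 0.627 in enterocyte-like cells, the latter from 40 UMIs in each set. Krt19 was at 1.33 in S phase and at 0.831 in enteroendocrine-like cells. The hormone range, where Krt19 was lowest, held 29 of the enteroendocrine-like cells in set 1 and 87 in set 2, and its part in that ratio was not tested. The differences between classes were not tested either, because each set is a single pool of cells.

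Barcodes left out for a mitochondrial share over 20% also held keratin RNA. Per 1000000 non-mitochondrial UMIs, the 6 members summed to 2934 in 6110 such barcodes of set 1 and to 3602 in 3671 of set 2. The kept cells held 2487 and 3775 on the same scale.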

How the results depend on the processing

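The number of keratins past 1.5-fold between the sets was 4. It became 2 with mitochondrial and ribosomal protein genes out of the denominator, 1 with the mean of each cell's CPM, 1 without the 5% of cells with the most UMIs, 3 with a pseudocount of 10 CPM and 5 with a mitochondrial limit of 10%. In alternatives chosen after seeing the data it was 1 without the revival-like cells and 1 with the classes weighted alike in both sets. Over 12 settings, the reported one included, the log2 ratio ran from 0.62 to 1.32 for Krt20, 0.45 to 0.67 for Krt8, 0.48 to 0.75 for Krt18, 0.27 to 0.60 for Krt19, 0.03 to 0.41 for Krt7 and 0.17 to 1.41 for Krt23, with no change of direction. The number of keratins past 2-fold in the classes was 27. It was 17 with a pseudocount of 10 CPM, 18 without the revival-like cells, 21 with no mitochondrial limit, and 23 to 29 in the other settings. With a mitochondrial limit of 10% it was 23, and the enterocyte-like class, with fewer than 50 cells in each set, was not counted there.

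The summed keratin level, 2244 CPM in set 1 and 3408 CPM in set 2, was 1923 and 2927 with no mitochondrial limit, 2266 and 3624 with a limit of 10%, 3679 and 5320 without mitochondrial and ribosomal protein genes in the denominator, 2331 and 3188 as a mean over cells, 2183 and 3147 without the 5% of deepest cells, 2193 and 3281 without the 3 highest cells of each gene, and 2161 and 3135 without the revival-like cells; set 2 was higher in each. Against other cells, Krt23 reversed without the revival-like cells, which hold most of its UMIs in set 2: the log2 ratio became 0.22 in S phase and 0.22 in stem-like cells of set 2. The other Krt23 calls also ended there, with log2 ratios of -0.28 to -0.97. Krt7 in S phase of both sets and in stem-like cells of set 2, and Krt20 in stem-like cells of set 1, also fell short of 2-fold in at least 1 setting. The other class ratios of Krt7, Krt18 and Krt20 stayed past 2-fold in the settings run. With a mitochondrial limit of 10%, however, the enterocyte-like class had 31 and 29 cells, under the minimum of 50, so its ratios were not called. No paired analysis was possible because each group is 1 sample and both carry the same matrix. Depth limits the rare members: the 7 Krt23 UMIs of enteroendocrine-like cells in set 1 give 1.76 CPM with an interval of 0.707 to 3.62.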
